A study of Mus musculus with 4 samples.

Results

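The PI3K, AKT and mTOR pathway is described here through 36 genes in lung tumor-infiltrating CD4+ T cells. The members were a fixed set of pathway components taken by gene symbol, from the class I PI3K subunits down to the effectors of mTORC1, by their place in the pathway and not by a threshold on measured values. All 36 were present among the 25239 gene symbols of the count files, and all 36 also passed the expression filter that left 13919 genes for testing. They were divided by textbook role into 22 activators, 9 brakes, 3 genes that can act in both directions and 2 FOXO transcription factors, which are targets of AKT.

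The study compared RNA-Seq libraries from 2 groups of C57BL/6 mice, with 2 WT libraries and 2 of CD4/ALK4-KO mice by their labels. The genotype of the second group is CD4CreERT2+/-/Acvr1bfl/fl, in which the Cre recombinase is driven by the *Cd4* promoter, depends on tamoxifen and deletes *Acvr1b*, the gene of the activin type I receptor ALK4. The study's methods describe 75 mg/kg tamoxifen daily for 5 days in this model, and whether the WT mice also received it is not given in the sources used here. Male mice of 8 to 10 weeks were used throughout the study. Both groups received 500000 LLC-OVA cells intravenously, a Lewis lung carcinoma line that carries ovalbumin, and tumors were excised on days 18 to 22 according to the labels, or 16 to 20 according to the methods. CD4+ T cells were isolated from the leukocyte fraction of the lungs, and how many mice went into a library is not given. The comparison asks how these cells differ when they cannot receive activin-A signals through ALK4. The libraries held 11823908 to 13943237 counts.

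The targeted gene, counted whole and over all cells of a library, did not separate the groups. Such counts do not show whether deletion took place in the CD4+ cells. Counts of *Acvr1b* were 426 and 342 under the WT label and 322 and 445 under the CD4/ALK4-KO label, a log2 fold change (log2FC) of 0.16 with a standard error (SE) of 0.24 and an adjusted p of 0.66, so every direction given here is one between labels. *Cd4*, the defining marker of the labelled cell type, had 55.4 and 48.0 against 307 and 327 CPM, where CPM are counts scaled to the library size. Cell type markers did separate them. All 14 T cell markers were higher under the CD4/ALK4-KO label, with summed levels of 475 to 524 CPM in those labelled WT and 2572 to 2664 CPM in the others. The 8 B cell markers summed to 60.3 to 72.6 against 213 to 439 CPM and the 6 CD8 and NK cell markers to 99.2 to 118 against 402 to 540 CPM, and again each of these genes was higher. The 11 macrophage and monocyte markers stood at 6784 to 7807 CPM in the libraries labelled WT and at 6757 to 6968 CPM in the others. These sums were above those of the T cell markers in all 4 libraries. Most of each was 1 gene, *Lyz2*, at 4278 and 5687 against 4758 and 4227 CPM. Their rank rests on it in the CD4/ALK4-KO-labelled libraries only. In the WT-labelled ones the remaining macrophage markers also summed above the T cell markers, among them *Itgam* at 446 and 486 and *Mrc1* at 430 and 333 CPM. Of the 11 markers, 1 was higher, *Csf1r*. The 11 tumor and stromal markers summed to 5843 to 6281 against 4472 to 4751 CPM, with 4 lower and 2 higher. Of these sums, *Col3a1* alone made 2788 and 2668 against 1423 and 1444 CPM. Of the 6 neutrophil markers, at 877 to 1368 against 891 to 1373 CPM, 2 were higher. No marker was at 0 in either group. Fold changes are given on the TMM scale of edgeR. Scaling the libraries instead to the summed counts of *Cd3d*, *Cd3e*, *Cd3g* and *Cd247*, called here the T cell receptor scale, shifted the median log2FC of all genes by -2.18, and on it *Acvr1b* was at -2.01. The part of these markers in the results below was not tested, and in bulk RNA fewer cells of a type and less RNA per cell cannot be told apart.

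**Figure D1:**
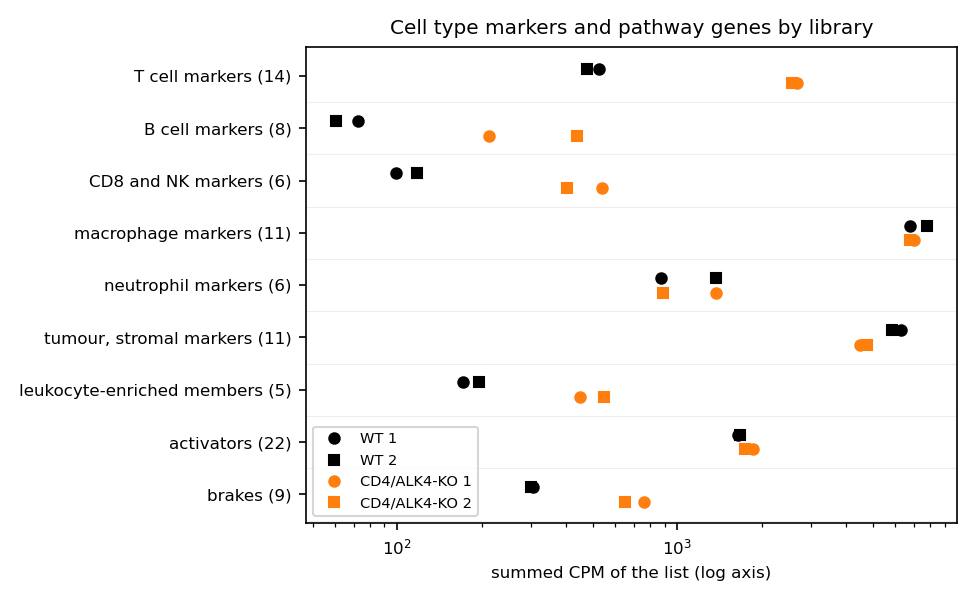
Summed CPM of 6 cell type marker lists, of the 5 leukocyte-enriched pathway genes, of the 22 activators and of the 9 brakes in each of the 4 libraries, on a log axis. T cell, B cell and CD8 and NK markers lie further right in both CD4/ALK4-KO-labelled libraries, and macrophage markers overlap. The activators lie close together, and the brakes separate, with *Inpp4b* the largest part of their sum.

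Class I PI3K enzymes, made of a catalytic and a regulatory subunit, phosphorylate a membrane lipid after T cell receptor, costimulatory or cytokine receptor engagement, and the product PIP3 recruits the kinases PDK1 and AKT. AKT inhibits the TSC complex, which otherwise keeps the GTPase RHEB off, and RHEB together with amino acid-sensing Rag GTPases at the lysosome switches on mTORC1, the complex that drives protein synthesis and glycolysis. AKT also excludes FOXO factors from the nucleus, and in resting T cells FOXO1 maintains genes of lymph node homing and survival. Phosphorylation, which sets the activity of most of these proteins, is not read by RNA-Seq, so the values below are transcript levels alone.

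Transcription start regions are shown for the called members that held a motif there. RefSeq (GRCm38.p6) listed 45 windows, from 250 bases before to 50 after a start, for 34 of the 36 genes, with none for *Deptor* and *Rps6kb2*. Searched on both strands were the E-box CACGTG, read by MYC and by the TFEB family, the FOXO motif GTAAACA, the ETS motif CCGGAAGT and the RUNX motif TGTGGTT, none of which contains another. Over all 32851 windows of this length, 7.15% held the E-box, 3.65% the FOXO, 3.89% the ETS and 5.27% the RUNX motif, and 18.7% held at least 1 of the 4. Among the 45 windows of the members, 5 held the E-box, 4 the FOXO, 6 the ETS and 1 the RUNX motif, and 15 held at least 1. Of the 5 genes lower in the CD4/ALK4-KO-labelled libraries that had a window, 4 held a motif, and 1 of the 14 higher genes did. The remaining 9 genes with a motif were not called, so holding a motif did not mark the lower genes. These counts are by gene and pool different motifs, whereas the 18.7% is by window and some genes had several windows. The 250 bases before these starts are given 5′ to 3′ along the gene, with motif letters in capitals and distances counted from the first letter of the motif. The first is *Akt1* (chr12:112674885-112675134, minus strand), with the FOXO motif in reverse complement 161 bases before 1 of its 2 starts.
Akt1: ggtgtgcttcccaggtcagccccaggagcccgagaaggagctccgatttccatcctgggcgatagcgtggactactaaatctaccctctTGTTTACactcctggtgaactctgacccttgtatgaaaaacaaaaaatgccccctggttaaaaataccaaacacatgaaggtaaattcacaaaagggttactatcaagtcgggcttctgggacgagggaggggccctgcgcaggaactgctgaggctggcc
The next, *Akt1s1* (chr7:44850122-44850371, plus strand), had the ETS motif in reverse complement 49 bases before the start.
Akt1s1: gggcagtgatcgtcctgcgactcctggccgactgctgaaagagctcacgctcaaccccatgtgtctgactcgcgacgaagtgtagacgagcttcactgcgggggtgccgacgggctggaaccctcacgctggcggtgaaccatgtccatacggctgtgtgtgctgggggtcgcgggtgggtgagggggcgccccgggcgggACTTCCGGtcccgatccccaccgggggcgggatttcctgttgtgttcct
*Rraga* (chr4:86575423-86575672, plus strand) held the ETS motif 50 bases before the start.
Rraga: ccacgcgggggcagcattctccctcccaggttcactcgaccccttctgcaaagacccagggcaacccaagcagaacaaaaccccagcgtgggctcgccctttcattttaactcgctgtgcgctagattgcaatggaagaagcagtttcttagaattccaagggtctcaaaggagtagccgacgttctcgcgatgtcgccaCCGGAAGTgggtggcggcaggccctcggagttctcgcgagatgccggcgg
*Eif4e* (chr3:138527018-138527267, plus strand) had the E-box at 228 and at 64 bases before the downstream one of its 2 starts.
Eif4e: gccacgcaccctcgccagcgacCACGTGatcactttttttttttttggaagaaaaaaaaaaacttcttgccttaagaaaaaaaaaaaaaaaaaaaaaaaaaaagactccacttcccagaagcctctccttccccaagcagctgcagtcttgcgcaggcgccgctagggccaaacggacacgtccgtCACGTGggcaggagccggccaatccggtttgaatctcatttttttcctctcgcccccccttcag
Among the higher genes the motif was in *Pik3cg* (chr12:32208471-32208720, minus strand), a FOXO motif 92 bases before 1 of its starts.
Pik3cg: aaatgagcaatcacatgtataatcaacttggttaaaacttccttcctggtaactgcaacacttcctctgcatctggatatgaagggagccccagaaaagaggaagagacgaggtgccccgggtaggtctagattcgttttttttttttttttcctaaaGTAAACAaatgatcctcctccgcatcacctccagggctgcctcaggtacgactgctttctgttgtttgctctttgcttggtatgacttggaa
A match describes the letters in the window and is not evidence of binding.

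Under the CD4/ALK4-KO label, 14 of the 36 genes were higher and 6 lower, called at an adjusted p under 0.05 (edgeR quasi-likelihood test, adjusted over all genes tested), and 16 were not called. Of all genes tested, 17.4% were higher and 15.4% lower, against 38.9% and 16.7% of the members. The median log2FC was 0.27 for the members and -0.0082 for all genes. Brakes and activators divided unequally. Of the 9 brakes, 5 were higher and 2 lower, with a median log2FC of 0.68, and of the 22 activators 6 were higher and 3 lower, with a median of 0.093. These directions belong to the TMM scale, since on the T cell receptor scale 0 brakes were higher and 7 lower, and 0 activators were higher and 21 lower. On that scale 0.345% of all genes were called higher and 92.0% lower. In summed level the activators had 1644 and 1680 CPM in the WT-labelled libraries against 1862 and 1748 CPM, and the brakes had 305 and 301 CPM against 759 and 652 CPM. A single brake, *Inpp4b*, made 78.7 and 108 against 481 and 320 CPM of these sums, so the brake sums mostly follow that gene. The CPM of both CD4/ALK4-KO-labelled libraries lay above both WT-labelled ones for 17 members and below for 8, or 47.2% and 22.2%, where 32.7% and 34.0% of all genes did so. With each library left out in turn, 8 of the 20 calls held in all 4 fits, 7 of them higher and 1 lower. Without WT replicate 1 the members were called higher in 8 cases and lower in 1, where 7.66% of all genes were higher and 5.24% lower. Among the higher ones were then 3 activators and 4 brakes, and without WT replicate 2 there were 5 activators and 3 brakes, where 9.34% of all genes were higher and 7.27% lower.

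**Figure D2:**
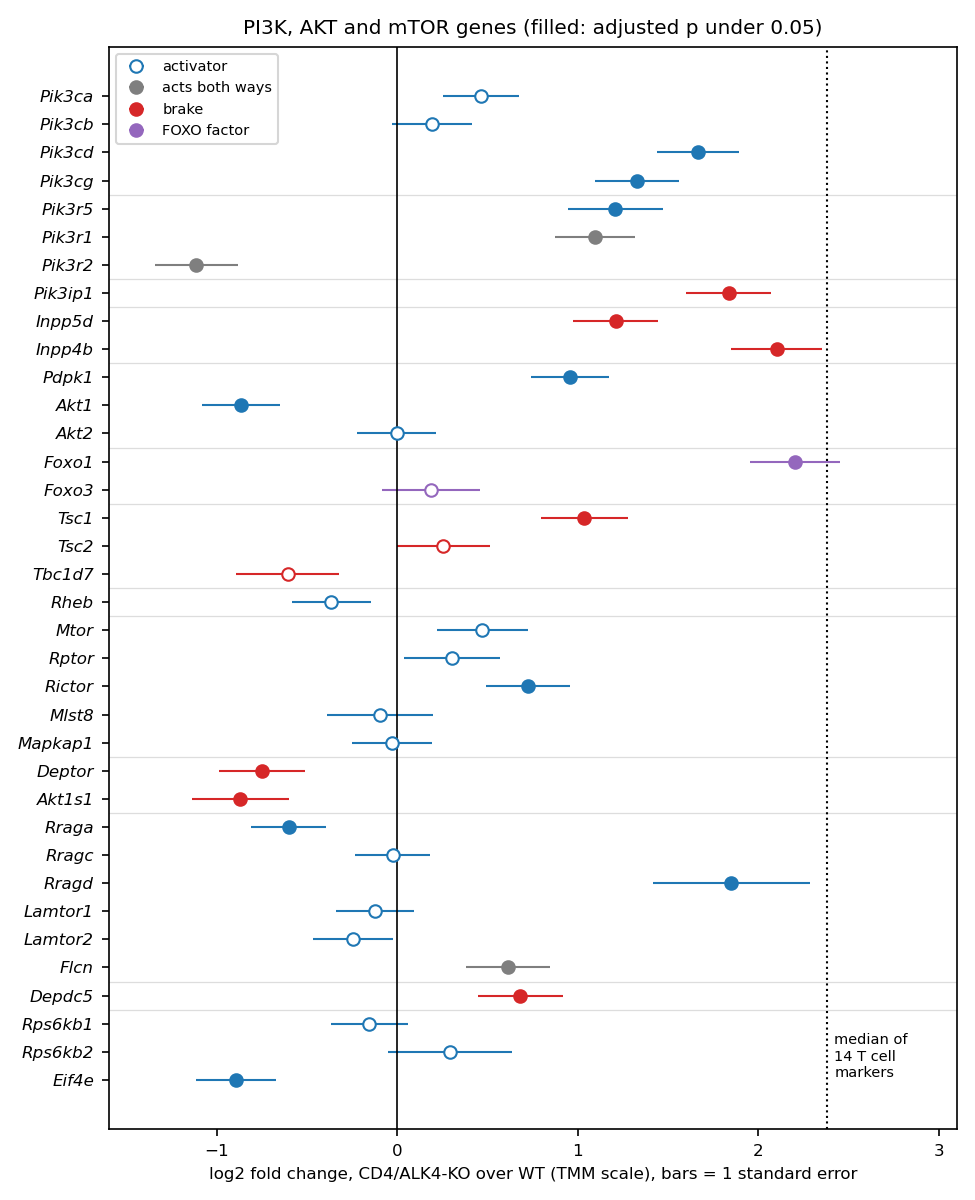
Log2FC of each of the 36 genes, CD4/ALK4-KO over WT as labelled, with bars of 1 SE, filled where the adjusted p is under 0.05 and coloured by role. From the top, the PI3K genes and their brakes lie mostly to the right, *Akt1*, *Deptor*, *Akt1s1*, *Rraga* and *Eif4e* lie to the left, and no point reaches the dotted line at the median of the 14 T cell markers, 2.38. On the T cell receptor scale none of the genes was called higher.

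On the TMM scale, the catalytic subunits of PI3K rose where they are leukocyte-enriched, and on the T cell receptor scale these were below 0. *Pik3cd* (chromosome 4, 149649168 to 149702571, GRCm38), encoding the delta subunit that carries most PI3K signaling in T cells, had 49.9 and 51.7 CPM in the WT-labelled libraries and 133 and 190 CPM in the CD4/ALK4-KO-labelled ones. *Pik3cg*, the gamma subunit coupled to chemokine receptors, had 44.1 and 65.6 against 151 and 124 CPM. The groups did not overlap for either gene, and the log2FC values were 1.67 (SE 0.23, adjusted p = 7.3e-06) and 1.33 (SE 0.23, adjusted p = 0.00013). The ubiquitous subunits moved less. *Pik3ca*, the alpha subunit, had 79.7 and 95.2 against 126 and 115 CPM, which also did not overlap, yet its log2FC of 0.46 (SE 0.21) was not called (adjusted p = 0.098). *Pik3cb*, the beta subunit, overlapped between the groups, with 37.4 and 42.1 against 49.6 and 41.1 CPM and a log2FC of 0.19 with a 95% confidence interval of -0.27 to 0.65. The count of *Pik3cd* was thus 0.63 and 0.54 times that of *Pik3ca* in the WT-labelled libraries and 1.06 and 1.65 times in the others. *Pik3ca* was called when CD4/ALK4-KO replicate 2 was left out (0.52, adjusted p = 0.036).

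The regulatory subunits went in opposite directions. *Pik3r1*, whose products stabilize the catalytic subunits while holding their basal activity down, had 77.1 and 107 CPM in the WT-labelled libraries against 210 and 182 CPM, a log2FC of 1.09 (SE 0.22, adjusted p = 0.00066). *Pik3r2*, which encodes the beta isoform of the same kind of subunit, had 57.4 and 49.5 against 22.4 and 27.0 CPM, a log2FC of -1.11 (SE 0.23, adjusted p = 0.00070). It was the only 1 of the 3 regulatory genes that was lower. *Pik3r5*, a subunit that joins the gamma enzyme to G protein beta-gamma dimers, had 21.5 and 25.9 against 38.5 and 70.8 CPM, with replicates further apart than those of the other regulatory genes. Its log2FC of 1.21 (SE 0.26, adjusted p = 0.0012) was 0.70 without CD4/ALK4-KO replicate 2 and stayed called. The call for *Pik3r1* was lost without WT replicate 1 (0.87, adjusted p = 0.091).

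All 3 brakes that act directly on PI3K or its lipid products were higher on the TMM scale, whereas on the T cell receptor scale all 3 were below 0. *Pik3ip1* (chromosome 11, 3330401 to 3342971, GRCm38), a membrane protein that binds PI3K and inhibits it, had 16.8 and 14.3 CPM in the WT-labelled libraries against 58.8 and 52.3 CPM, a log2FC of 1.84 (SE 0.24, adjusted p = 3.7e-06). *Inpp5d*, which encodes the lipid phosphatase SHIP-1 of blood cells, had 39.1 and 38.7 against 69.6 and 110 CPM, a log2FC of 1.21 (SE 0.24, adjusted p = 0.00046). *Inpp4b* (chromosome 8, 81342556 to 82127914), a phosphatase acting on the product of SHIP-1, had 78.7 and 108 against 481 and 320 CPM. The groups were separate for each of them, and the 2.10 of *Inpp4b* (SE 0.25, adjusted p = 1.4e-06) was the largest log2FC of the 9 brakes. Per kb of exon, *Inpp4b* went from 7.14 to 30.6 CPM and *Pik3cd* from 8.12 to 25.8 CPM, on average over the libraries of a group. Along with *Pik3cd*, *Pik3cg* and *Pik3r5*, *Pik3ip1* and *Inpp5d* are enriched in leukocytes by textbook knowledge, and these 5 summed to 171 and 196 CPM against 451 and 547 CPM, beside T cell markers that were higher by a median of 2.38 on the log2 scale. The other 31 members had 9 higher and 6 lower calls and a median log2FC of 0.19, beside 17.4% higher and 15.4% lower of all genes.

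Below PI3K, the kinases divided. *Pdpk1*, encoding PDK1, which phosphorylates AKT in its activation loop, had 73.8 and 88.4 CPM in the WT-labelled libraries against 169 and 146 CPM, a log2FC of 0.96 (SE 0.21, adjusted p = 0.0016). *Akt1* (chromosome 12, 112653821 to 112674884), whose level per kb of exon was above that of *Akt2* in both groups (46.5 against 6.63 CPM under the WT label and 25.5 against 6.60 CPM under the other), had 214 and 167 against 105 and 104 CPM and a log2FC of -0.87 (SE 0.22, adjusted p = 0.0038). Neither gene overlapped between the groups. *Akt2* did, with 49.4 and 45.1 against 42.6 and 51.6 CPM and a log2FC of -0.0046 (95% confidence interval -0.46 to 0.45). Within each library, which no scaling alters, the count of *Akt1* was 4.33 and 3.69 times that of *Akt2* in the WT-labelled libraries and 2.46 and 2.01 times in the CD4/ALK4-KO-labelled ones. Both calls were lost without WT replicate 1, where *Pdpk1* had 0.83 (adjusted p = 0.10) and *Akt1* -0.68 (adjusted p = 0.17).

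*Foxo1* (chromosome 3, 52268336 to 52353221, GRCm38) showed the largest log2FC of the 36 genes. It had 10.3 and 9.91 CPM in the WT-labelled libraries and 44.5 and 48.5 CPM in the CD4/ALK4-KO-labelled ones, a log2FC of 2.20 (SE 0.25, adjusted p = 7.5e-07), with replicates close together and groups far apart. *Foxo3*, its relative, had 15.0 and 14.6 against 18.3 and 15.3 CPM, and its log2FC of 0.19 had a 95% confidence interval of -0.37 to 0.75. Within a library *Foxo1* had 0.69 and 0.68 times the count of *Foxo3* in the WT-labelled libraries and 2.43 and 3.16 times in the others, and per kb of exon the order of these genes changed, from 1.17 against 1.95 to 5.37 against 2.22 CPM. A list of 12 FOXO1 target genes of T cells had 9 higher and 1 lower, beside 17.4% higher and 15.4% lower of all genes. The list had a median log2FC of 1.48 on the TMM scale and -0.72 on the T cell receptor scale. Among its most abundant genes *Il7r*, the interleukin-7 receptor, had 160 and 172 against 645 and 416 CPM. *S1pr1*, needed to leave lymph nodes, *Ccr7*, which guides entry, and *Btg1*, linked to quiescence, were also higher, with log2FC values of 1.91, 2.12 and 1.30. *Klf2*, which controls homing genes, overlapped between the groups at 88.6 and 59.3 against 67.2 and 90.6 CPM (0.094, adjusted p = 0.80). The lower gene was *Gadd45a*, a growth arrest gene named after its value was seen, at -0.81, and its call was lost without WT replicate 1 (-0.81, adjusted p = 0.12) and without WT replicate 2 (-0.83, adjusted p = 0.091). These genes are also expressed by naive T cells, and the T cell markers moved with them.

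**Figure D3:**
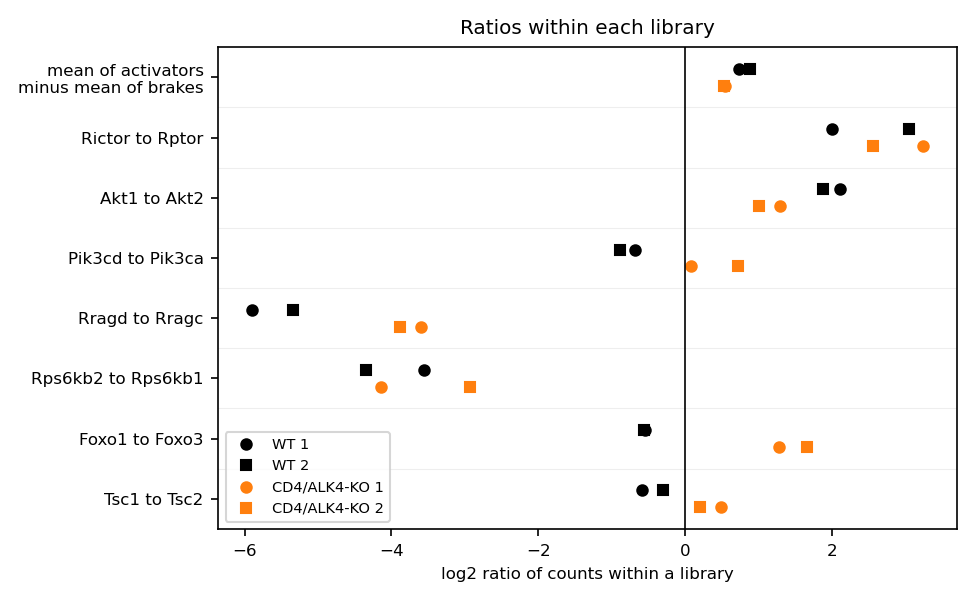
Log2 ratios of counts between gene pairs within each library, and the difference of mean log2 CPM between activators and brakes, with WT in black and CD4/ALK4-KO in orange as labelled. The libraries of the 2 labels are apart for the first, *Akt1* to *Akt2*, *Pik3cd* to *Pik3ca*, *Rragd* to *Rragc*, *Foxo1* to *Foxo3* and *Tsc1* to *Tsc2* entries and mixed for the other 2.

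In the TSC complex, the brake on RHEB, 1 of 3 subunits was called. *Tsc1*, which stabilizes the complex, had 20.7 and 18.7 CPM in the WT-labelled libraries against 35.8 and 44.9 CPM, a log2FC of 1.04 (SE 0.24, adjusted p = 0.0022). *Tsc2*, which carries the GTPase-activating domain, overlapped at 31.0 and 23.1 against 25.5 and 39.0 CPM (0.25, 95% confidence interval -0.28 to 0.79). *Tbc1d7*, the third subunit, was at 14.5 and 15.8 against 10.8 and 9.15 CPM, apart between the groups but not called (-0.61, adjusted p = 0.11). The count of *Tsc1* was 0.67 and 0.81 times that of *Tsc2* in the WT-labelled libraries and 1.41 and 1.15 times in the others. *Rheb*, the GTPase itself, had 167 and 157 against 146 and 105 CPM and was not called (-0.37, adjusted p = 0.21). Some of these calls changed with 1 library left out. *Tsc1* was lost without WT replicate 2 (0.96, adjusted p = 0.067), and *Rheb* was called without CD4/ALK4-KO replicate 1 (-0.59, adjusted p = 0.016).

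In the mTOR complexes, 1 of 5 core subunits was called. *Mtor*, the kinase, had 27.2 and 22.0 CPM in the WT-labelled libraries against 27.6 and 40.5 CPM, and *Rptor*, encoding RAPTOR, the scaffold of mTORC1, had 25.9 and 16.8 against 25.0 and 27.6 CPM. Their log2FC values of 0.47 and 0.30 had 95% confidence intervals of -0.051 to 0.99 and -0.25 to 0.85. *Rictor*, the scaffold of mTORC2, which completes AKT activation, had 104 and 139 against 238 and 164 CPM, a log2FC of 0.72 (SE 0.23, adjusted p = 0.021). The ratio of *Rictor* to *Rptor* counts overlapped, with 4.01 and 8.29 in the WT-labelled libraries and 9.51 and 5.92 in the others. *Mlst8*, shared by both complexes, had 15.0 and 14.6 against 10.2 and 17.3 CPM, and *Mapkap1*, which encodes the mTORC2 subunit SIN1, had 54.2 and 43.4 against 47.4 and 48.2 CPM. Both overlapped, with 95% confidence intervals of -0.71 to 0.51 and -0.48 to 0.42 for the log2FC. The call for *Rictor* was lost without WT replicate 1 (0.52, adjusted p = 0.39), WT replicate 2 (0.94, adjusted p = 0.056) or CD4/ALK4-KO replicate 1 (0.46, adjusted p = 0.057), and *Mtor* was called without CD4/ALK4-KO replicate 1 (0.75, adjusted p = 0.011).

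The inhibitory subunits of the mTOR complexes were lower, opposite to the brakes at PI3K. *Deptor*, which binds mTOR in both complexes, had 51.1 and 38.3 CPM in the WT-labelled libraries against 24.3 and 28.8 CPM, a log2FC of -0.75 (SE 0.24, adjusted p = 0.018). *Akt1s1*, encoding PRAS40, an inhibitor of mTORC1 that AKT releases, had 30.1 and 22.1 against 15.0 and 13.5 CPM, a log2FC of -0.87 (SE 0.27, adjusted p = 0.016). The groups were apart in both cases, with the highest value in WT replicate 1. Without that library *Deptor* had -0.53 (adjusted p = 0.38) and *Akt1s1* -0.64 (adjusted p = 0.33). *Depdc5*, the GATOR1 subunit that turns off Rag GTPases when amino acids are scarce, was higher instead, with 23.1 and 22.5 against 38.3 and 34.7 CPM and a log2FC of 0.68 (SE 0.24, adjusted p = 0.030). This call was lost without WT replicate 1 (0.69, adjusted p = 0.25), without WT replicate 2 (0.65, adjusted p = 0.25) and with upper quartile scaling (0.61, adjusted p = 0.056).

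**Figure D4:**
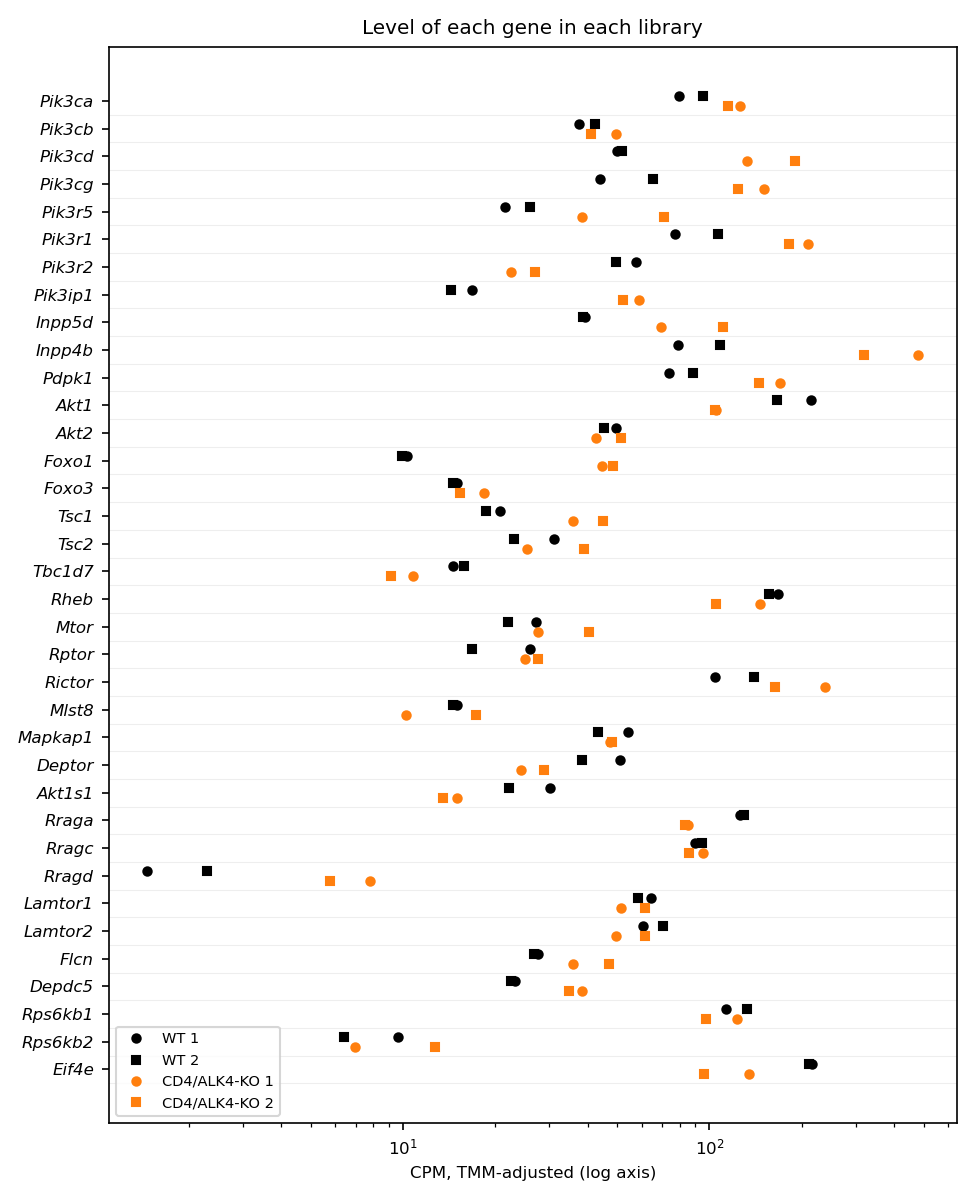
CPM of each of the 36 genes in each of the 4 libraries on a log axis, with WT in black and CD4/ALK4-KO in orange as labelled. *Foxo1*, *Inpp4b*, *Pik3ip1* and *Rragd* show wide gaps with the CD4/ALK4-KO-labelled libraries on the right, while *Akt1*, *Eif4e* and *Pik3r2* show the opposite order.

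Among the lysosomal activators of mTORC1, the Rag GTPases differed from each other. *Rraga*, encoding RagA, had 126 and 130 CPM in the WT-labelled libraries against 85.2 and 83.3 CPM, a log2FC of -0.60 (SE 0.21, adjusted p = 0.029), and per kb of exon it had the highest level of the 36 genes in both groups, 79.0 and 52.1 CPM. *Rragd*, encoding RagD, had the lowest level per kb of exon, 0.363 and 1.31 CPM, with 20 and 31 counts against 93 and 71, or 1.46 and 2.29 against 7.81 and 5.75 CPM. Its log2FC was 1.85 (SE 0.44, adjusted p = 0.0024), whereas *Rragc*, the alternative partner of RagA, had 89.5 and 94.7 against 95.3 and 85.6 CPM and a 95% confidence interval of -0.46 to 0.41 for the log2FC. *Rragd* counts were 0.017 and 0.025 times those of *Rragc* in the WT-labelled libraries and 0.082 and 0.068 times in the others, and per kb of exon *Rragc* had 27.6 and 27.1 CPM. *Lamtor1* and *Lamtor2*, which hold the Rag GTPases on the lysosome as part of Ragulator, had 64.2 and 58.6 against 51.2 and 61.4 CPM and 60.9 and 70.5 against 49.4 and 61.4 CPM. Both overlapped, with log2FC values of -0.12 (95% confidence interval -0.57 to 0.32) and -0.24 (-0.70 to 0.21). *Flcn*, encoding folliculin, which activates RagC and RagD and so restrains the TFEB family, had 27.7 and 26.7 against 35.9 and 47.1 CPM, a log2FC of 0.61 (SE 0.23, adjusted p = 0.048).

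Several of these calls were lost with 1 library left out. Without a WT library fewer of all genes were called as well, and there the log2FC of *Rraga* and *Flcn* moved little. *Rraga* was lost without WT replicate 1 (-0.63, adjusted p = 0.22) and without WT replicate 2 (-0.59, adjusted p = 0.23), and *Rragd* without WT replicate 1 (1.55, adjusted p = 0.074). *Flcn* was lost without WT replicate 1 (0.63, adjusted p = 0.29), WT replicate 2 (0.58, adjusted p = 0.30) or CD4/ALK4-KO replicate 2 (0.40, adjusted p = 0.22), with upper quartile scaling (0.55, adjusted p = 0.087) and in the Wald test of DESeq2 (0.62, adjusted p = 0.055).

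Of the 3 effectors of mTORC1, *Eif4e* was lower. It encodes the cap-binding protein that 4E-BP proteins hold until mTORC1 releases it, and had 216 and 212 CPM in the WT-labelled libraries against 134 and 96.2 CPM, a log2FC of -0.89 (SE 0.22, adjusted p = 0.0038) that lost its call without WT replicate 1 (-0.89, adjusted p = 0.056). The S6 kinases were not called. *Rps6kb1* had 113 and 132 against 123 and 97.2 CPM, and *Rps6kb2* had 9.63 and 6.43 against 6.97 and 12.7 CPM, both with overlapping groups. Their log2FC values of -0.15 and 0.29 had 95% confidence intervals of -0.60 to 0.29 and -0.42 to 1.00. Of the exonic bases of *Rps6kb2*, 23.7% are shared with exons of *Ptprcap*, a lymphocyte gene on the opposite strand, and 22.5% of those of *Mlst8* with *Bricd5*, 18.7% of those of *Lamtor1* with *Lrrc51*, 7.9% of those of *Rragc* with 4930535I16Rik, 7.78% of those of *Foxo1* with Gm20402 and 7.2% of those of *Tsc2* with *Pkd1*. The library kit does not mark strand, so reads in these stretches cannot be assigned and these values are uncertain to that extent.

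Activators and brakes were also set against each other within each library. The mean log2 CPM of the 22 activators exceeded that of the 9 brakes by 0.74 and 0.89 in the WT-labelled libraries and by 0.55 and 0.54 in the CD4/ALK4-KO-labelled ones. The difference between the groups was -0.27, with a pooled SD of 0.076, and the groups did not overlap. Of all single genes, 32.7% lay above and 34.0% below without overlap. Single genes weigh on these means, since the log2FC ran from -0.87 to 2.10 (*Inpp4b*) in the brakes and from -0.89 to 1.85 in the activators. The difference without single genes was not computed. Leaving out each library in turn gave -0.35 to -0.19. No test was made of this value, and it rests on how the genes were divided into roles, which leaves the 3 genes that act both ways and the 2 FOXO factors, 5 in all, in neither class.

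Scaling to the T cell receptor genes reversed the sign of the log2FC for 20 of the 36 genes. On this scale no member was higher, 32 were lower and 4 were not called, where 92.0% of all genes were lower and 0.345% higher. The 4 were *Foxo1* (0.023), *Inpp4b* (-0.11), *Rragd* (-0.35) and *Pik3ip1* (-0.35), and *Foxo1* was the only member above 0. They were the members with the highest values on this scale, followed by *Pik3cd* (-0.51), *Pik3cg* (-0.87), *Inpp5d* (-0.96) and *Pik3r5* (-0.96). Of the 12 FOXO1 targets, none was higher and 8 were lower on this scale, also beside 92.0% of all genes lower. This scale sets the receptor genes equal in all libraries, and counts from other cells, whose markers were abundant here, are scaled along with them.

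Further genes around the pathway were taken from lists chosen by function. Of 24 other PI3K and AKT genes, 7 were higher and 2 lower, with a median log2FC of 0.40, beside 17.4% higher and 15.4% lower of all genes. *Sgk1*, a kinase activated by mTORC2, overlapped at 235 and 242 CPM in the WT-labelled libraries against 266 and 224 CPM, and so did *Pik3c2a*, a class II PI3K, at 142 and 164 against 187 and 124 CPM. The lower genes, named after their values were seen, were *Inppl1*, encoding SHIP-2 (-0.89), and *Irs1*, an adaptor of the insulin receptor (-1.43). *Inppl1* was no longer called without WT replicate 1 (-0.69, adjusted p = 0.22) or CD4/ALK4-KO replicate 1 (-0.50, adjusted p = 0.10). The higher calls of the list were fewer without WT replicate 1 or WT replicate 2, as were those of all genes. On the T cell receptor scale 1 gene was higher and 21 lower, beside 0.345% higher and 92.0% lower of all genes.

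Of 43 other regulators of mTOR, 9 were higher and 1 lower, with a median of 0.20. Of all genes tested, 17.4% were higher and 15.4% lower, so the higher calls of this list were near the share of all genes. Among the sestrins, which restrain mTORC1, *Sesn3*, a FOXO target, had 14.7 and 21.2 against 64.1 and 69.5 CPM (log2FC 1.90, adjusted p = 2.9e-06), while *Sesn1* was not called (0.39, adjusted p = 0.17). *Ddit4*, a stress-induced inhibitor of mTORC1, overlapped between the groups (0.13, adjusted p = 0.68). The 4E-BP genes, which encode the repressors of *Eif4e*, went in both directions. *Eif4ebp1* had 179 and 118 against 68.3 and 71.2 CPM (-1.09, adjusted p = 0.00084), and *Eif4ebp2* had 20.8 and 17.7 against 32.8 and 30.0 CPM (0.71, adjusted p = 0.032). Of the 4 most abundant genes of this list, *Cab39*, a partner of the kinase LKB1, was higher (0.74, adjusted p = 0.010), and *Seh1l* and *Sec13*, of the GATOR2 complex, and *Prkaa1*, of AMPK, were not called. *Eif4ebp1* lost its call without WT replicate 1 (-0.76, adjusted p = 0.11), *Cab39* without WT replicate 1 (0.80, adjusted p = 0.14) or WT replicate 2 (0.68, adjusted p = 0.20), and *Eif4ebp2* without WT replicate 1 (0.82, adjusted p = 0.16), WT replicate 2 (0.59, adjusted p = 0.32) and with upper quartile scaling (0.64, adjusted p = 0.061). Over the list, the higher calls were fewer without WT replicate 1 or WT replicate 2, as were those of all genes. With the replicate number as a block they fell from 9 to 4, where those of all genes fell from 2422 to 1768. The 1 lower call became 3 with upper quartile scaling, where those of all genes rose from 2140 to 2428. It was lost without WT replicate 1, and without either CD4/ALK4-KO library lower calls were more, both as for all genes. On the T cell receptor scale 0 were higher and 42 lower, beside 0.345% higher and 92.0% lower of all genes.

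Of 29 genes chosen by function as mTORC1 output, 8 were lower, 1 was higher and 20 were not called, with a median log2FC of -0.29. Of all genes, 15.4% were lower and 17.4% higher. Whether these transcripts follow mTORC1 activity in these cells was not tested. *Ldha*, the lactate dehydrogenase of glycolysis, had 2369 and 2257 CPM in the WT-labelled libraries against 1282 and 1174 CPM (-0.91, adjusted p = 0.0011), a call that was lost without WT replicate 1 (-0.89, adjusted p = 0.061). *Hif1a*, the hypoxia factor, *Atf4*, the amino acid stress factor, and *Pfkp*, a phosphofructokinase, were not called, with log2FC values of 0.098, -0.091 and 0.24. The higher gene, named after its value was seen, was *Slc7a11*, a cystine transporter, at 0.72 (adjusted p = 0.023), and it was not called without WT replicate 1 (0.45, adjusted p = 0.45) or CD4/ALK4-KO replicate 1 (0.49, adjusted p = 0.058) or with the replicate number as a block (0.73, adjusted p = 0.060). The lower calls were fewer without WT replicate 1, as were those of all genes. On the T cell receptor scale all 29 genes were lower, beside 92.0% of all genes. Tumor and stromal markers were also lower in sum in the CD4/ALK4-KO-labelled libraries, mostly through *Col3a1*. Of those 11 markers, 7 had a log2FC below 0 and 4 above. Their part in the values of this list was not tested.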

How the data were processed

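Per the labels and the study's methods, 75 bp single-end reads of TruSeq RNA v2 libraries were aligned to mm10 with HISAT2 and assigned to genes by htseq-count (mode intersection-nonempty). The authors deposited raw counts, 1 file per library, without normalization. Tool versions, the annotation and the strand option are not given in the sources used here. All mice carried the same tumor line, and groups were taken from the labels, 2 libraries each. They are described as biological replicates, and which animals they came from is not given.

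From the deposited counts, edgeR 4.0.16 (R 4.3.3) was run with filterByExpr, TMM normalization and a robust quasi-likelihood fit on genotype, with Benjamini-Hochberg adjustment over 13919 genes. The common dispersion was 0.0357. CPM use TMM-adjusted library sizes, and SD rest on n = 2 libraries per group. Standard errors and confidence intervals come from the quasi-likelihood fit of these libraries. In it the variance of each gene is moderated by that of the other genes, so they rest on more than its own replicates. Confidence intervals are at 95% and not adjusted. Replicates differed by more than sampling noise (chi-square per degree of freedom of 16.0 and 28.7). Ratios within a library used 0.5 added counts. Gene positions, exon lengths and overlaps are from GENCODE M21 (GRCm38).

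The genes named are all 36 members, *Acvr1b*, *Cd4*, 12 further regulators and targets, and the 4 most abundant genes of each other list. Of these genes, some are not reported here. Members and lists were chosen with earlier results of these data known. The test was checked on simulated data. Alternatives were size factors of DESeq2 1.42.0, upper quartile scaling, T cell receptor scaling, no filter or a minimum of 10 counts per library, a block for the replicate number, the DESeq2 Wald test, edgeR's likelihood ratio test, 2 added counts within a library and each library left out.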

Additional observations from a re-analysis of the deposited data

How the results depend on the processing

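The counts of called members were within 1.5 times of those reported with DESeq2 size factors, upper quartile scaling, either filter, the likelihood ratio test and the DESeq2 Wald test. On the T cell receptor scale 0 members were higher and 32 lower, with 0 activators higher, 21 lower, 0 brakes higher and 7 lower, because all genes shift by a median of -2.18 by construction. With 1 library left out at a time, members higher ranged from 8 to 14, members lower from 1 to 7, activators higher from 3 to 7, activators lower from 0 to 4, brakes higher from 3 to 5 and brakes lower from 0 to 2. Calls over all genes moved too, with fewer in both directions without a WT library and more without a CD4/ALK4-KO library. Each such fit has fewer samples and 1 group with a lone library, which is assumed to vary like the other group.

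The replicate numbers were added as a replicate block. This gave 11 members higher and 3 lower, with 0 brakes lower, where 1768 of all 13919 genes were higher and 1444 lower. It ended the calls of *Rictor*, *Deptor*, *Akt1s1*, *Rraga*, *Flcn* and *Depdc5* among the members. Among the other genes named, it ended those of *Eif4ebp2* (0.71, adjusted p = 0.11), *Cab39* (0.74, adjusted p = 0.066) and *Slc7a11*. The numbers are not said to pair libraries, and the differences between replicates 1 and 2 in the 2 groups correlated at r = -0.214 over 13919 genes. The crossed pairing, chosen after seeing the data, gave 15 higher and 7 lower members, where 3118 of all 13919 genes were higher and 3037 lower. The cause of these differences was not tested.

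On the T cell receptor scale the signs reversed for the log2 fold changes of *Pik3ca* -1.73, *Pik3cb* -2.01, *Pik3cd* -0.51, *Pik3cg* -0.87, *Pik3r5* -0.96, *Pik3r1* -1.10, *Pik3ip1* -0.35, *Inpp5d* -0.96, *Inpp4b* -0.11, *Pdpk1* -1.24, *Foxo3* -2.004, *Tsc1* -1.14, *Tsc2* -1.91, *Mtor* -1.69, *Rptor* -1.87, *Rictor* -1.49, *Rragd* -0.35, *Flcn* -1.56, *Depdc5* -1.51, *Rps6kb2* -1.86, *Acvr1b* -2.01, *Sesn1* -1.81, *Sesn3* -0.29, *Ddit4* -2.06, *Sgk1* -2.16, *Eif4ebp2* -1.48, *Klf2* -2.07, *S1pr1* -0.27, *Il7r* -0.53, *Ccr7* -0.065, *Pik3c2a* -2.18, *Cab39* -1.45, *Btg1* -0.88, *Hif1a* -2.10, *Pfkp* -1.95, *Slc7a11* -1.48. With DESeq2 size factors or its Wald test *Akt2* was at 0.0062, and with upper quartile scaling *Sgk1* was at -0.034 and *Pik3c2a* at -0.046. With the replicate block *Pik3c2a* was at -0.0008, and at -0.0003 with the crossed pairing. The sign also reversed in at least 1 fit without a library for *Akt2* (-0.16 to 0.16), *Tsc2* (-0.093 to 0.56), *Mlst8* (-0.53 to 0.26), *Mapkap1* (-0.19 to 0.13), *Rragc* (-0.075 to 0.043), *Lamtor1* (-0.27 to 0.030), *Rps6kb1* (-0.31 to 0.0013), *Rps6kb2* (-0.21 to 0.69), *Acvr1b* (-0.065 to 0.39), *Ddit4* (-0.010 to 0.28), *Sgk1* (-0.063 to 0.15), *Klf2* (-0.17 to 0.41), *Pik3c2a* (-0.27 to 0.28), *Hif1a* (-0.091 to 0.28), *Atf4* (-0.32 to 0.13); none of these was called. With 2 libraries per group, genes that were not called may still differ within their confidence intervals.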
